A study of Homo sapiens with 4 samples.

Results

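The HOX genes of the 4 human clusters were followed in NCI-H460, an established line of human non-small cell lung cancer. Every symbol made of HOX, a cluster letter from A to D and a paralog number was taken, which gave 39 genes among the 26364 symbols of the count tables. Of these, 11 belong to cluster HOXA on chromosome 7, 10 to HOXB on chromosome 17, 9 to HOXC on chromosome 12 and 9 to HOXD on chromosome 2. Cells were irradiated with gamma rays at 4 Gy or left at 0 Gy, and the cultures were then kept for 48 h in 2 uM DZNep (3-deazaneplanocin A) or in its solvent DMSO. The 4 groups were DZNep 0 Gy, DZNep 4 Gy, DMSO 0 Gy and DMSO 4 Gy, with 1 library each, so no group has a replicate. All 4 groups share the cell line, the solvent control has no untreated culture beside it, and the labels do not say whether the libraries came from separate cultures. The study asked which messenger RNAs differ with the drug, with radiation, or with both.

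HOX genes encode homeodomain transcription factors that give cells their position along the head-to-tail axis and along the limbs. In each cluster the genes stand in the order of their paralog numbers, low numbers acting in the hindbrain and throat, high numbers in the lower trunk, limbs and genitalia. Retinoic acid and the trithorax protein KMT2A are known to open the clusters, and the Polycomb complexes keep them closed in cells that do not use them. DZNep blocks S-adenosylhomocysteine hydrolase, which lets a by-product accumulate that inhibits methyltransferases, the Polycomb enzyme EZH2 among them. Many carcinoma lines, lung lines included, keep part of the HOX genes of their tissue switched on.

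Each library held 112461380 to 136594350 counts. Levels are given as CPM, counts scaled to library size and to edgeR's TMM factors of 0.979 to 1.01. A gene was tested if it reached 1 CPM in at least 2 libraries, which 13378 genes did, 23 HOX genes among them. Effects of the drug and of radiation came from 1 additive fit of both factors to the 4 libraries, tested by edgeR's quasi-likelihood method, and the Benjamini-Hochberg adjusted p had to lie under 0.05. With 1 residual degree of freedom, these p-values measure only the spread between these 4 libraries, which may be technical, and a drug effect that differs between doses adds to that spread. A ratio of 2 libraries has no replicate check. It is given with a 95% interval that covers counting error only. In bulk RNA, fewer cells expressing a gene and less RNA per cell cannot be told apart.

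RefSeq promoter windows, from 250 bases before to 50 bases after a transcript start, were matched by symbol for 20 of the 39 genes. They are shown as 250 bases before the start for genes on which the results turn. HOXA7 and HOXA11 rose with DZNep and HOXA2 fell, all 3 on the minus strand of chromosome 7. HOXC4 and HOXC5, on the plus strand of chromosome 12, share 1 annotated start and therefore 1 window, although their counts moved in opposite directions. Capitals mark CG dinucleotides, the bases at which vertebrate DNA is methylated, and each sequence is written 5′ to 3′ along the gene's strand.
HOXA7, GRCh38.p14 chr7:27156676-27156925: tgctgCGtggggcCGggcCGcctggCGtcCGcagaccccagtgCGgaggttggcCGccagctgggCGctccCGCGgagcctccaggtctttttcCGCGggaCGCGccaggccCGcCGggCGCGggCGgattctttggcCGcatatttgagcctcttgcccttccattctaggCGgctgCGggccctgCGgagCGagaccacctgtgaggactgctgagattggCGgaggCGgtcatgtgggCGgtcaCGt
HOXA11, GRCh38.p14 chr7:27185233-27185482: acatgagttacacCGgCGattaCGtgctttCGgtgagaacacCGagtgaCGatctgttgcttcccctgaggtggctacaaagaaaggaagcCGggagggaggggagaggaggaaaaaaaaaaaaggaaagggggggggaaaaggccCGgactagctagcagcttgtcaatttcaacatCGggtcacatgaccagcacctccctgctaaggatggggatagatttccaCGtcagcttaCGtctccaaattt
HOXA2, GRCh38.p14 chr7:27102684-27102933: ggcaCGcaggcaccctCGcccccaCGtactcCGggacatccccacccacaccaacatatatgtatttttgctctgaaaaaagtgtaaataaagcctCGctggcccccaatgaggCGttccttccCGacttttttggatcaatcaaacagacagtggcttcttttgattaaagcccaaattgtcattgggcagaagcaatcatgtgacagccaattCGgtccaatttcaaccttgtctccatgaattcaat
HOXC4 and HOXC5, GRCh38.p14 chr12:54016638-54016887: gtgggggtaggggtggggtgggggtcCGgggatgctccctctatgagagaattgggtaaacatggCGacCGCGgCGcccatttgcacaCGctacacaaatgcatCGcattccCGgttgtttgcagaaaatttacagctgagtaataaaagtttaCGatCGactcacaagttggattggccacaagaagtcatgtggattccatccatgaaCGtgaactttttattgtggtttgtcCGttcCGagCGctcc
The stretch shown for HOXA7 holds 28 CG dinucleotides, that of HOXA11 11, that of HOXC4 and HOXC5 14 and that of HOXA2 8. Over the 27 whole HOX windows the median was 22 CG dinucleotides, against 14 over 35114 windows of all genes. Their median GC content was 58.0%, against 58.7% over all windows, so the HOX windows held more CG at about the same base composition. The median ratio of observed to expected CG was 0.849 over the HOX windows and 0.579 over all. The 27 HOX windows are not independent. Several are alternative starts of HOXA3 or HOXA10, and the window shared by HOXC4 and HOXC5 was counted for each gene. Cluster HOXB is represented by HOXB1 alone and HOXC by that shared window alone.

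A motif bound by PBX and HOX proteins together, TGATTNAT on either strand, was found in 2 of the 27 HOX windows, or 7.41%, against 2.82% of all windows. One match is ATCAATCA, its reverse complement, 114 bases before the start of HOXA2, and it can be read in lower case in the HOXA2 sequence printed above. The other lies 67 bases before the start of HOXD11. The letters TATAAA on either strand were in 5 HOX windows, or 18.5%, against 11.5% of all windows. These matches describe letters in annotated windows, on another genome build than hg19, the build named for the counts.

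The HOX genes ranged from no count to over 50 CPM. No count was found in any of the 4 libraries for 5 of the 39 genes, HOXB1, HOXC12, HOXD3, HOXD4 and HOXD9. The same held for 4250 of all 26364 symbols, so silence was not more frequent among the HOX genes. A count of 0 allows up to 3 counts, which is 0.0217 to 0.0267 CPM per library. A further 4 genes stayed under 0.1 CPM in every library. HOXD10 had 2 counts in DZNep 4 Gy alone and HOXD12 had 2 in DMSO 0 Gy alone. HOXD1 had 4 and 3 counts in DZNep 0 and 4 Gy, against 7 and 0 in DMSO, and HOXB2 had 3 and 1 counts in DZNep, against 2 and 8 in DMSO. These 9 genes were grouped by their level in all 4 libraries, treated ones included, so that none reached 0.1 CPM follows from the grouping. Cluster HOXD supplied 6 of the 9, and no HOXA gene was among them. In the GENCODE annotation, HOXD4 shares 80.5% and HOXD3 74.1% of its exonic bases with another gene, mostly AC009336.2 on the same strand, and how reads in shared bases were counted is not given in the sources used here. HOXD9, HOXB1 and HOXC12 share none.

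Another 5 genes stayed under 1 CPM, namely HOXA4, HOXB4, HOXC4, HOXC11 and HOXD11, and 25 genes reached 1 CPM in at least 1 library. In all, 16 of the 39 genes stayed outside the test, HOXA6 among them, which reached 1 CPM in only 1 library.

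Per kilobase of transcript, HOXA3 had the highest level, 10.5 to 13.2 CPM per kb over the 4 libraries. HOXA3 patterns the thymus, the parathyroid and other organs of the throat in mice. HOXC13, a regulator of hair and nail keratins, had 2.65 to 8.54 CPM per kb and HOXB5 3.68 to 5.01 CPM per kb. HOXB9 (2.63 to 3.79), HOXB6 (2.23 to 4.13), HOXC8 (2.10 to 4.62), HOXD8 (2.30 to 3.43) and HOXA10 (2.14 to 2.78 CPM per kb) had lower means over the 4 libraries. The range of HOXC13 overlaps those of all these genes and HOXB5 lay above HOXD8 and HOXA10 without overlap, but no order can be read between genes whose ranges overlap. HOXA3 stood above every other HOX gene in each library. HOXA3 shares 17.9% of its exonic bases with antisense and neighbouring transcripts.

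**Figure D1:**
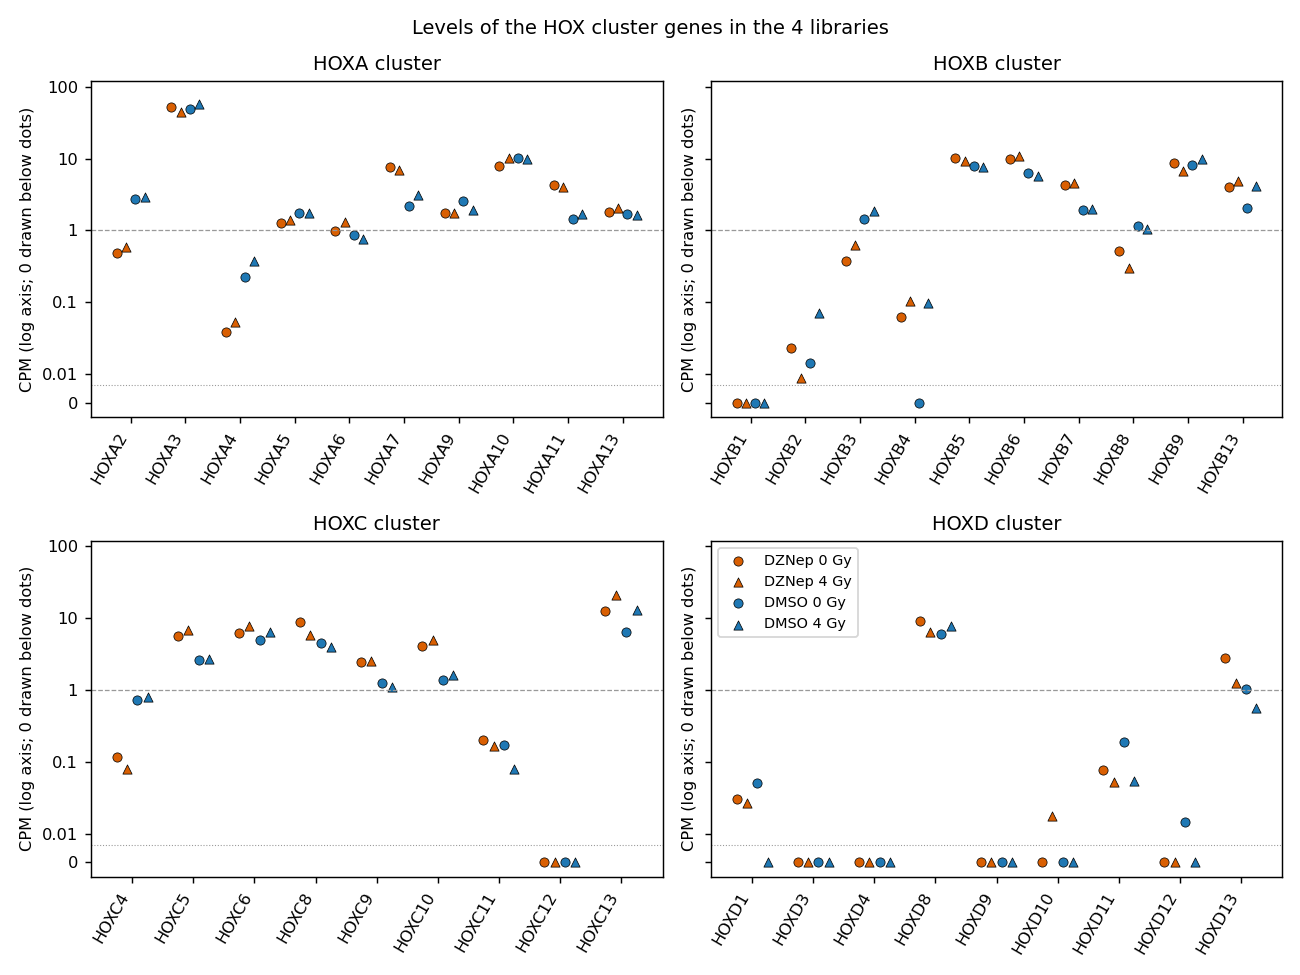
Level of 38 HOX genes in CPM (log axis, with 0 drawn below the dotted line), 1 panel per cluster and genes in paralog order. Orange is DZNep, blue is DMSO, circles are 0 Gy and triangles 4 Gy, and the dashed line marks 1 CPM. HOXA3 lies highest, at 45.1 to 56.8 CPM, most HOXD genes lie at or near 0, and the low-numbered genes HOXA2, HOXA4, HOXB3 and HOXC4 show orange points below blue ones.

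With DZNep, 10 of the 23 tested HOX genes rose and 3 fell. Among all tested genes, 10.8% rose and 12.3% fell. The rises were HOXC10, HOXA7, HOXA11, HOXD13, HOXC5, HOXB7, HOXC9, HOXC13, HOXC8 and HOXB6, and the falls HOXA2, HOXB3 and HOXB8. The median log2 fold change of the tested HOX genes was 0.36, against -0.02 for all tested genes. The 3 falling genes reached 1 CPM only in the DMSO libraries, so they could enter the test only by being higher there, and the rising genes reached it in DMSO as well. Both DZNep libraries lay above both DMSO libraries for 11 of the 23 (26.3% of all tested genes) and below both for 5 (27.8% of all). The DZNep to DMSO ratio had the same sign at 0 and 4 Gy for 19 of the 23, against 74.2% of all tested genes.

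**Figure D2:**
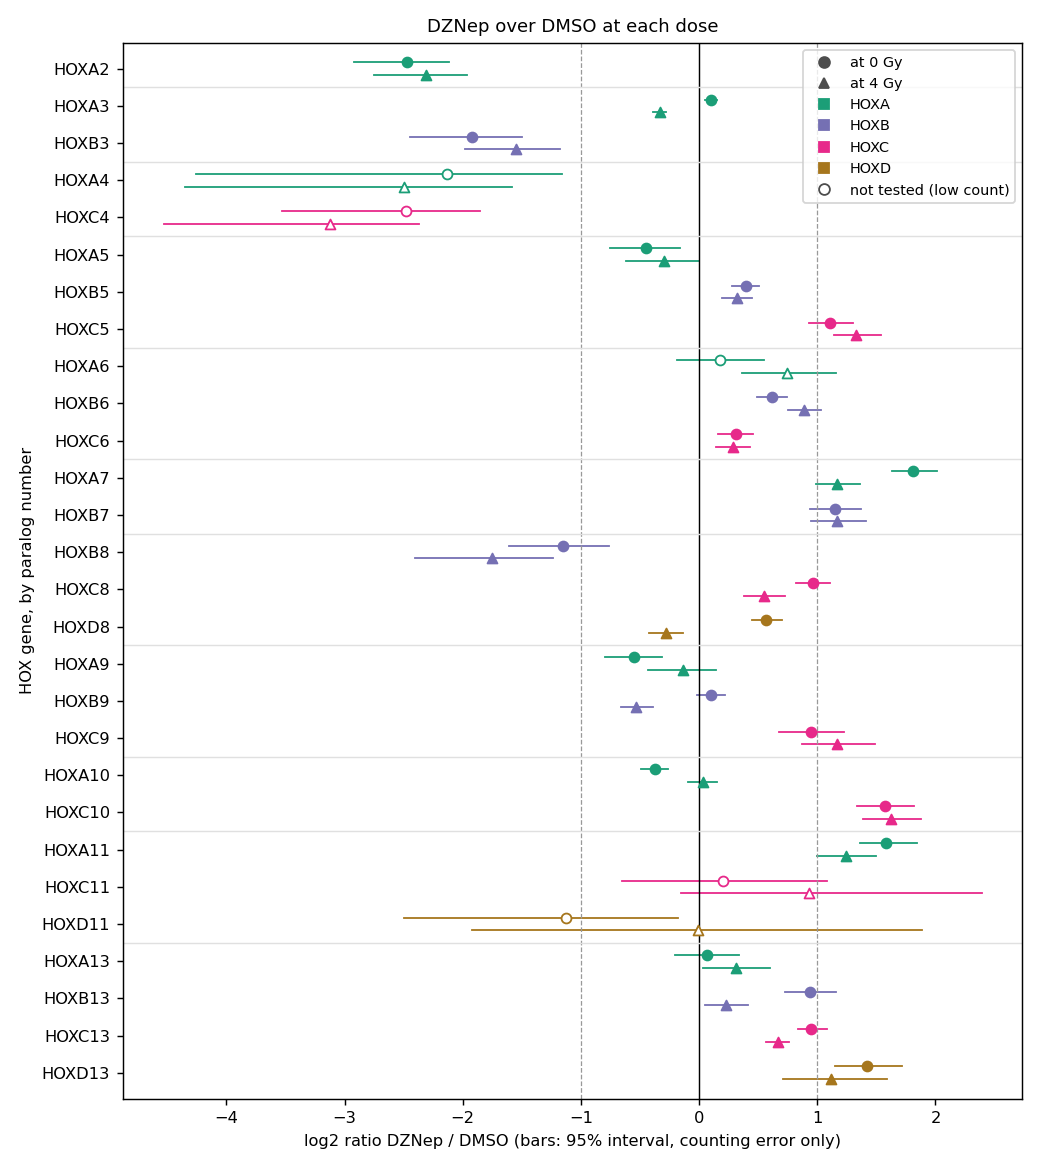
Log2 ratio of DZNep to DMSO at 0 Gy (circles) and at 4 Gy (triangles) for the HOX genes with counts, ordered by paralog number and coloured by cluster. Bars are 95% intervals for counting error only, open symbols are genes below the test's filter, and dashed lines mark 2-fold. HOXA2, HOXB3, HOXA4, HOXC4 and HOXB8 lie left of the lower line at both doses, while HOXC5, HOXA7, HOXB7, HOXC10, HOXA11 and HOXD13 lie right of the upper line at both.

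In cluster HOXA, 2 of 8 tested genes rose and 1 fell, while 5 did not pass. HOXA7, which is switched on with HOXA9 in KMT2A-rearranged leukaemia, had 7.71 and 6.96 CPM in DZNep at 0 and 4 Gy, against 2.18 and 3.09 CPM in DMSO. Both DZNep libraries were above both DMSO libraries, and the rise was 2.82-fold (log2 1.50, SE 0.26, adjusted p = 0.00169). HOXA11, needed for forearm and uterus development in mice, had 4.28 and 3.99 CPM in DZNep, against 1.42 and 1.68 CPM in DMSO. It rose 2.68-fold (log2 1.42, SE 0.29, adjusted p = 0.00447), again without overlap between the drug groups. HOXA7 shares 62.5% of its exonic bases with HOXA-AS3 on the opposite strand and HOXA11 shares 31.1% with HOXA11-AS, and the use of strand in counting is not given in the sources used here. HOXA11-AS itself stood at only 0.193 to 0.338 CPM.

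HOXA2 specifies the second pharyngeal arch and part of the hindbrain in mice. It had 0.479 and 0.580 CPM in DZNep (62 and 66 counts), against 2.73 and 2.95 CPM in DMSO (378 and 331 counts). The fall was 5.37-fold (log2 -2.43, SE 0.34, adjusted p = 0.000332), the largest change of any tested HOX gene. HOXA2 shares no exonic base with another annotated gene.

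HOXA4, with fewer counts, lay lower in DZNep as well. It had 5 and 6 counts in DZNep and 31 and 42 in DMSO, with log2 ratios of -2.13 (interval -4.26 to -1.16) at 0 Gy and -2.50 (-4.35 to -1.58) at 4 Gy. HOXA4 was below the filter, and it did not pass in the fit without one (log2 -2.65, SE 0.93, adjusted p = 0.0969).

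The rest of cluster HOXA did not pass the drug test. HOXA3, in contrast to its low-count neighbours, had 52.4 and 45.1 CPM in DZNep, against 48.9 and 56.8 CPM in DMSO, so the groups overlapped (log2 -0.12, SE 0.17, adjusted p = 0.652). HOXA5, required for lung development in mice, had 1.26 and 1.39 CPM in DZNep and 1.73 and 1.72 CPM in DMSO (log2 -0.38, SE 0.32, adjusted p = 0.421). HOXA9 had 1.75 and 1.77 CPM in DZNep and 2.56 and 1.95 CPM in DMSO (log2 -0.35, SE 0.31). DZNep was the lower group for both, by less than the test could separate. HOXA10 (log2 -0.17, SE 0.20) and HOXA13 (log2 0.19, SE 0.31) did not pass either. HOXA6 was not tested and had 0.981 and 1.29 CPM in DZNep, against 0.867 and 0.765 CPM in DMSO.

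In cluster HOXB, 2 of 7 tested genes rose, 2 fell and 3 did not pass. HOXB7, often raised in carcinomas, had 4.31 and 4.50 CPM in DZNep at 0 and 4 Gy, against 1.94 and 1.98 CPM in DMSO. Libraries of the same drug were within a few percent of each other, and the rise was 2.25-fold (log2 1.17, SE 0.28, adjusted p = 0.00998). HOXB6 had 9.78 and 10.8 CPM in DZNep and 6.37 and 5.80 CPM in DMSO, a 1.69-fold rise (log2 0.75, SE 0.20, adjusted p = 0.0193). HOXB6 shares 32.9% of its exonic bases with HOXB3 and HOXB-AS3, and HOXB7 shares none.

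HOXB8, whose forced expression holds mouse myeloid progenitors in an immature state, went the other way from its neighbours HOXB6 and HOXB7. It had 0.518 and 0.299 CPM in DZNep, against 1.17 and 1.04 CPM in DMSO, a 2.77-fold fall (log2 -1.47, SE 0.37, adjusted p = 0.0132). The call was lost with DESeq2 (adjusted p = 0.103) and without the filter on low counts (adjusted p = 0.055). HOXB3, a gene of the hindbrain and of blood progenitors, had 0.371 and 0.633 CPM in DZNep and 1.44 and 1.88 CPM in DMSO. Its fall was 3.38-fold (log2 -1.76, SE 0.35, adjusted p = 0.00386), and the groups did not overlap.

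HOXB5 had 10.2 and 9.39 CPM in DZNep, against 7.77 and 7.51 CPM in DMSO, without overlap but short of the threshold (log2 0.36, SE 0.20, adjusted p = 0.211). HOXB9 overlapped between the groups (log2 -0.21, SE 0.22). HOXB13, a gene of prostate development, had 3.99 and 4.86 CPM in DZNep and 2.07 and 4.15 CPM in DMSO (log2 0.58, SE 0.28, adjusted p = 0.159). Its DMSO 0 Gy library was the low one, and the other 3 lay close together. HOXB4, which expands blood stem cells when forced, had 8 and 12 counts in DZNep and 0 and 11 in DMSO.

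In cluster HOXC, 5 of 6 tested genes rose and HOXC6 did not pass. The median log2 fold change was 0.94 in HOXC, -0.14 in HOXA, 0.36 in HOXB and 0.72 over the 2 tested genes of HOXD. These differences between clusters were not tested. HOXC10, a hindlimb gene that marks lumbar motor neurons in mice, had 4.14 and 4.96 CPM in DZNep, against 1.39 and 1.60 CPM in DMSO. It rose 3.04-fold (log2 1.60, SE 0.29, adjusted p = 0.00186), the largest rise of the family, with nearly equal ratios of 1.57 at 0 Gy and 1.62 at 4 Gy. HOXC9, which sets thoracic motor neuron identity in mice, had 2.43 and 2.50 CPM in DZNep and 1.25 and 1.10 CPM in DMSO. Its 2.09-fold rise (log2 1.07, SE 0.32, adjusted p = 0.0288) was lost with DESeq2 (adjusted p = 0.0651).

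HOXC8, which patterns the thoracic skeleton in mice, had 8.72 and 5.83 CPM in DZNep, against 4.47 and 3.97 CPM in DMSO. The rise was 1.69-fold (log2 0.76, SE 0.24, adjusted p = 0.0347), and without the filter on low counts its adjusted p was 0.0508. HOXC13 had 12.4 and 20.7 CPM in DZNep and 6.41 and 13 CPM in DMSO. At each dose the DZNep library was the higher one, but DZNep 0 Gy lay just under DMSO 4 Gy, so the drug groups overlapped across doses. The DZNep rise was 1.75-fold (log2 0.81, SE 0.19, adjusted p = 0.00839). HOXC6 had 6.20 and 7.80 CPM in DZNep and 5.0 and 6.39 CPM in DMSO (log2 0.30, SE 0.22, adjusted p = 0.353). HOXC11 stayed low, at 26 and 19 counts in DZNep and 24 and 9 in DMSO.

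HOXC4 and HOXC5 parted although they share the annotated start printed above. HOXC5 had 5.71 and 6.78 CPM in DZNep, against 2.64 and 2.68 CPM in DMSO, a 2.34-fold rise (log2 1.22, SE 0.25, adjusted p = 0.00467). HOXC4 had 15 and 9 counts in DZNep, against 100 and 91 in DMSO. Its log2 ratio was -2.48 (interval -3.53 to -1.85) at 0 Gy and -3.12 (-4.53 to -2.37) at 4 Gy, and it passed in the fit without a filter (-2.96, SE 0.61, adjusted p = 0.0114). In GENCODE, HOXC4 shares 17.8% of its exonic bases with HOXC5 and HOXC6 on the same strand, and the protein-coding entry of HOXC5 shares 33.9% with AC012531.2. How a read in a shared exon was assigned cannot be seen from the tables, so the 2 values are uncertain.

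In cluster HOXD only HOXD8 and HOXD13 were tested. HOXD13, a gene of the digits that is mutated in human synpolydactyly, had 2.77 and 1.26 CPM in DZNep at 0 and 4 Gy, against 1.03 and 0.570 CPM in DMSO. It rose 2.45-fold (log2 1.29, SE 0.33, adjusted p = 0.0153), and both DZNep libraries lay above both DMSO libraries. HOXD8 had 9.02 and 6.51 CPM in DZNep and 6.05 and 7.89 CPM in DMSO, which overlap (log2 0.15, SE 0.24, adjusted p = 0.693). HOXD11 had 10 and 6 counts in DZNep, against 26 and 6 in DMSO.

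Summed over members, cluster HOXC had 40.0 and 48.8 CPM in DZNep, against 22.1 and 29.7 CPM in DMSO. The log2 ratio of sums was 0.86 at 0 Gy and 0.72 at 4 Gy. HOXB summed to 38.0 and 37.3 CPM in DZNep and 28.9 and 32.3 CPM in DMSO, ratios of 0.39 and 0.21. HOXA summed to 78.8 and 73.6 CPM in DZNep and 73.7 and 81.9 CPM in DMSO, where HOXA3 alone made up 61.3% to 69.4%. Without HOXA3 the HOXA ratios were 0.10 at 0 Gy and 0.18 at 4 Gy. HOXD summed to 11.9 and 7.86 CPM in DZNep and 7.33 and 8.51 CPM in DMSO. HOXD8 made up 75.8% to 92.7% of that sum, and without it the ratios were 1.17 at 0 Gy and 1.12 at 4 Gy.

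The DZNep ratios were also grouped by paralog number, and differences between these groups were not tested. Among 11 genes of paralog groups 1 to 4, 5 had counts enough for a ratio at both doses. Of these, 4 (HOXA2, HOXA4, HOXB3 and HOXC4) were at least 2-fold lower in DZNep at both, and HOXA3 was not. HOXB4 had no ratio at 0 Gy because its DMSO library had 0 counts, and it was not lower in DZNep. It had 8 and 12 counts in DZNep, against 0 and 11 in DMSO. Of the 3 genes of groups 1 to 4 that were tested, HOXA2 and HOXB3 fell. Among the 11 genes of groups 5 to 8, 3 were at least 2-fold higher at both doses (HOXA7, HOXB7 and HOXC5) and HOXB8 was at least 2-fold lower. Of 10 tested there, 5 rose and 1 fell. Among the 16 genes of groups 9 to 13, 12 had ratios at both doses, and HOXA11, HOXC10 and HOXD13 were at least 2-fold higher at both. Of 10 tested there, 5 rose and the other 5 did not pass.

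The median ratio of the genes with values at both doses was -2.13 at 0 Gy and -2.31 at 4 Gy over these 5 genes of groups 1 to 4. HOXB4 was left out of it. The median was 0.57 and 0.55 in groups 5 to 8, and 0.57 and 0.49 in groups 9 to 13. At least 2-fold higher in DZNep were 6 of the 23 tested HOX genes at 0 Gy and 7 at 4 Gy, against 5.48% and 4.71% of all tested genes. At least 2-fold lower were 3 at each dose, against 5.87% of all tested genes at 0 Gy and 6.40% at 4 Gy. The 4 lower genes of groups 1 to 4 are also among the less abundant ones, at 0.224 to 2.95 CPM in DMSO. HOXA3, the most abundant, did not share their ratio. At DMSO levels within that range, HOXA11, HOXB7, HOXC5, HOXC9, HOXC10 and HOXD13 of higher groups rose and HOXB8 fell. HOXA5, HOXA9 and HOXA13 did not pass. Whether paralog number or level goes with the falls was not tested, and the genes are few.

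Within a paralog group the clusters did not always go together. Both tested genes of group 7, HOXA7 and HOXB7, rose. In group 13 all 4 genes were tested, and HOXC13 and HOXD13 rose while HOXA13 and HOXB13 did not pass. In group 8, HOXC8 rose, HOXB8 fell and HOXD8 did not pass. In group 9 HOXC9 alone passed, in group 10 HOXC10 alone, and in group 5 HOXC5 alone. The median of the 3 tested genes of group 9 was -0.21, and that of group 5 was 0.36.

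**Figure D3:**
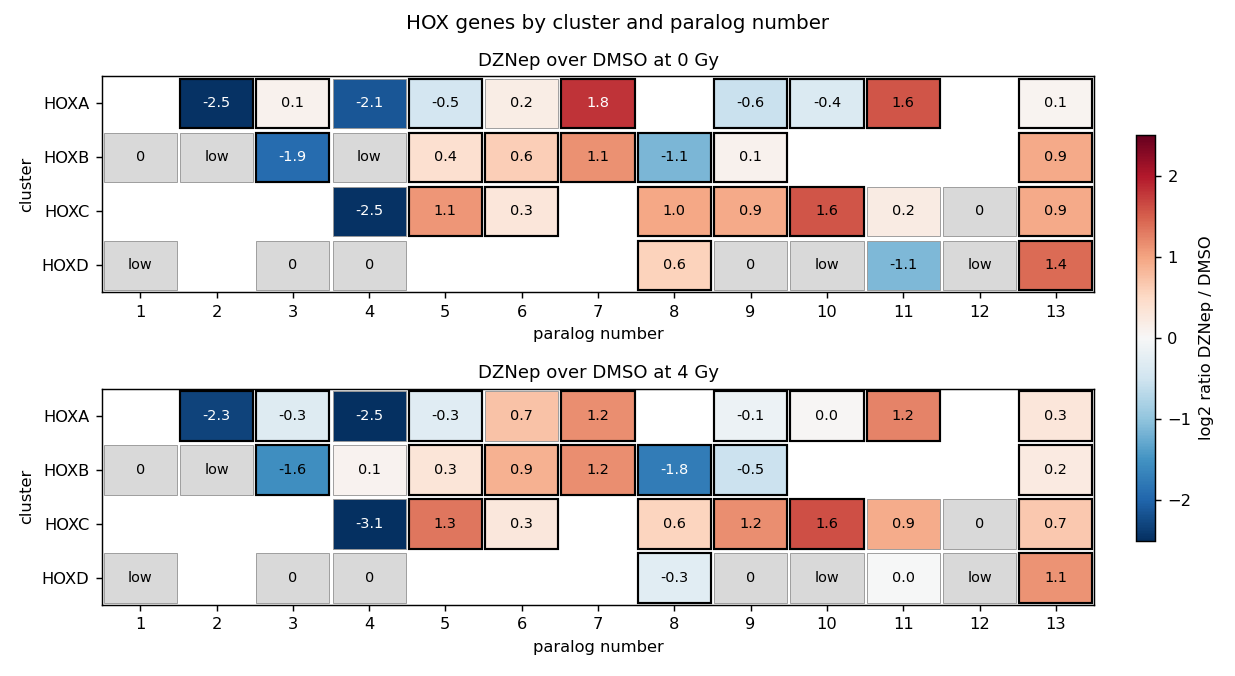
Log2 ratio of DZNep to DMSO for 38 HOX genes by cluster (rows) and paralog number (columns), at 0 Gy above and at 4 Gy below. Red is higher and blue lower in DZNep, black frames are tested genes, "low" marks too few counts for a ratio, 0 in grey marks no count in any library, and white positions are not drawn. HOXA2, HOXA4, HOXB3, HOXC4 and HOXB8 are at -1.15 or lower at both doses and HOXA7, HOXA11 and HOXC10 at 1.17 or higher, and from paralog number 5 upward both colours occur.

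With radiation, at 4 Gy against 0 Gy, 1 of the 23 tested HOX genes rose and 0 fell by edgeR's test. Among all tested genes, 2.17% rose and 0.897% fell. DESeq2 gave the same 1 and 0. At an unadjusted p under 0.05, edgeR's test gave 2 rises, HOXB13 and HOXC13, and 1 fall, HOXD13. Such a p was common among all 13378 tested genes. With plain library size scaling in place of TMM, 2847 of them had it, rises and falls together. The median log2 fold change with radiation was 0.07 over the tested HOX genes and 0.01 over all tested genes. The ratio had the same sign in DZNep and in DMSO for 12 of the 23, against 65.7% of all tested genes.

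The gene that rose was HOXC13. With DZNep it had 20.7 CPM at 4 Gy and 12.4 CPM at 0 Gy, and with DMSO 13 CPM at 4 Gy and 6.41 CPM at 0 Gy. The irradiated library was the higher one under both drugs, with log2 ratios of 0.73 (interval 0.64 to 0.83) in DZNep and 1.02 (0.90 to 1.14) in DMSO. The additive log2 fold change was 0.88 (SE 0.19, adjusted p = 0.0291). The call did not hold without the filter on low counts (adjusted p = 0.0651) or without the drug in the model (adjusted p = 0.998), where no gene of the series passed. HOXC13 was thus the only HOX gene past the threshold for both the drug and the dose.

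The other genes of paralog group 13 did not pass the radiation test. HOXB13 had 4.86 CPM at 4 Gy and 3.99 CPM at 0 Gy in DZNep, and 4.15 CPM and 2.07 CPM in DMSO. Its ratio was 0.29 in DZNep and 0.99 in DMSO, and it did not pass (log2 0.64, SE 0.28, adjusted p = 0.221). HOXD13 pointed the other way, with 1.26 CPM at 4 Gy and 2.77 CPM at 0 Gy in DZNep, and 0.570 CPM and 1.03 CPM in DMSO. The irradiated library was the lower one under both drugs, but the change did not pass (log2 -1.0, SE 0.33, adjusted p = 0.114). HOXA13 had ratios of 0.19 (-0.08 to 0.46) in DZNep and -0.05 (-0.34 to 0.23) in DMSO, both within counting error of 0.

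Among the tested HOX genes, few single ratios with radiation reached 2-fold. In DZNep, HOXD13 was at least 2-fold lower at 4 Gy (1.10% of all tested genes were) and 0 tested HOX genes were 2-fold higher (1.82% of all were). In DMSO, HOXC13 was at least 2-fold higher (3.60% of all tested genes were) and 0 tested HOX genes were 2-fold lower (1.55% of all were). Below the filter, the ratio in DMSO was -1.55 (interval -3.39 to -0.50) for HOXD11 and 1.51 (-0.02 to 5.57) for HOXB2, the second resting on 8 counts at 4 Gy and 2 at 0 Gy. HOXA2, HOXB3 and HOXC10, which changed with the drug, had radiation effects of 0.19 (SE 0.32), 0.56 (SE 0.35) and 0.23 (SE 0.28) on the log2 scale, none past the threshold.

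**Figure D4:**
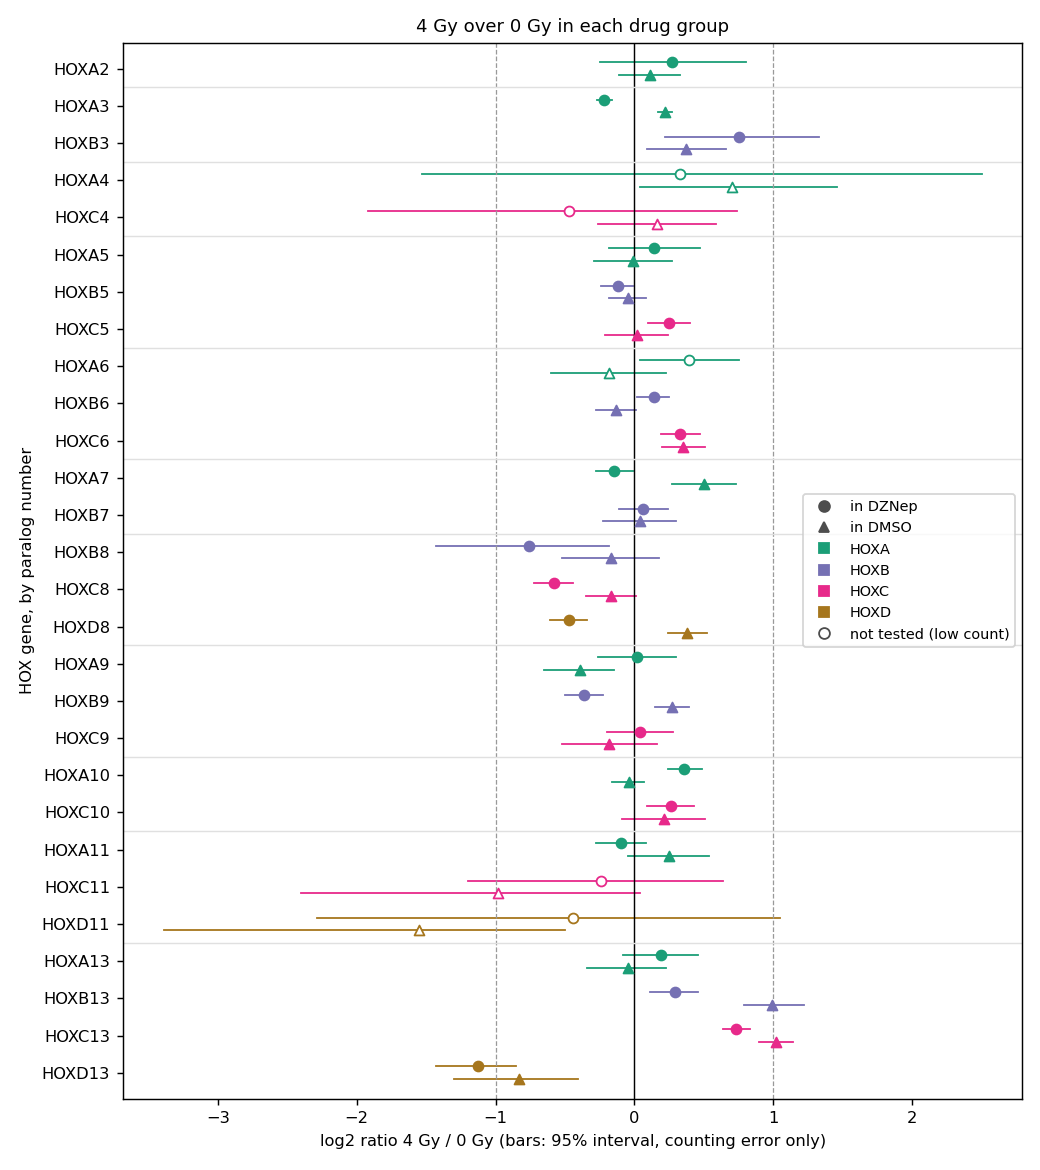
Log2 ratio of 4 Gy to 0 Gy in DZNep (circles) and in DMSO (triangles) for the HOX genes with counts, ordered by paralog number and coloured by cluster. Bars are 95% intervals for counting error only, open symbols are genes below the test's filter, and dashed lines mark 2-fold. Most points lie near 0, HOXC13 lies to the right at 0.73 and 1.02, and HOXD13 to the left at -1.13 and -0.83.

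The clusters also give rise to non-coding and antisense transcripts, of which 31 were listed, 23 were in the tables and 7 were tested. With DZNep 2 of the 7 rose and the other 5 did not pass, with a median of 0.49, against rises in 10.8% of all tested genes. HOXA-AS3, antisense to HOXA7 and its neighbours, had 12.7 and 11.5 CPM in DZNep, against 3.88 and 5.41 CPM in DMSO. It rose by 1.40 on the log2 scale (SE 0.22, adjusted p = 0.000885), close to the 1.50 of HOXA7, with which it shares exonic bases. HAGLR, a long RNA antisense to HOXD1 and HOXD3, had 31.6 and 16.1 CPM in DZNep at 0 and 4 Gy, against 14.3 and 8.82 CPM in DMSO.

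HAGLR rose with DZNep (log2 1.01, SE 0.18, adjusted p = 0.00188) and fell with radiation (log2 -0.84, SE 0.18, adjusted p = 0.0291). HOXD13 had the same order of libraries, highest in DZNep 0 Gy and lowest in DMSO 4 Gy, while HOXD8, between them in the cluster, did not. HOXD3, whose exons HAGLR partly covers, had no count in any library. HOXC13-AS had 1.27 and 2.53 CPM in DZNep, against 0.910 and 1.40 CPM in DMSO, the same order as HOXC13 within each drug, and passed for neither the drug (log2 0.67, SE 0.33, adjusted p = 0.157) nor radiation (log2 0.81, SE 0.33, adjusted p = 0.183). HOTAIR, the HOXC transcript known for its ties to PRC2, had 16 and 9 counts in DZNep and 32 and 24 in DMSO. HOTAIRM1, a HOXA transcript, had 2 and 0 counts in DZNep and 22 and 21 in DMSO, so it lay lower in DZNep at both doses.

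**Figure D5:**
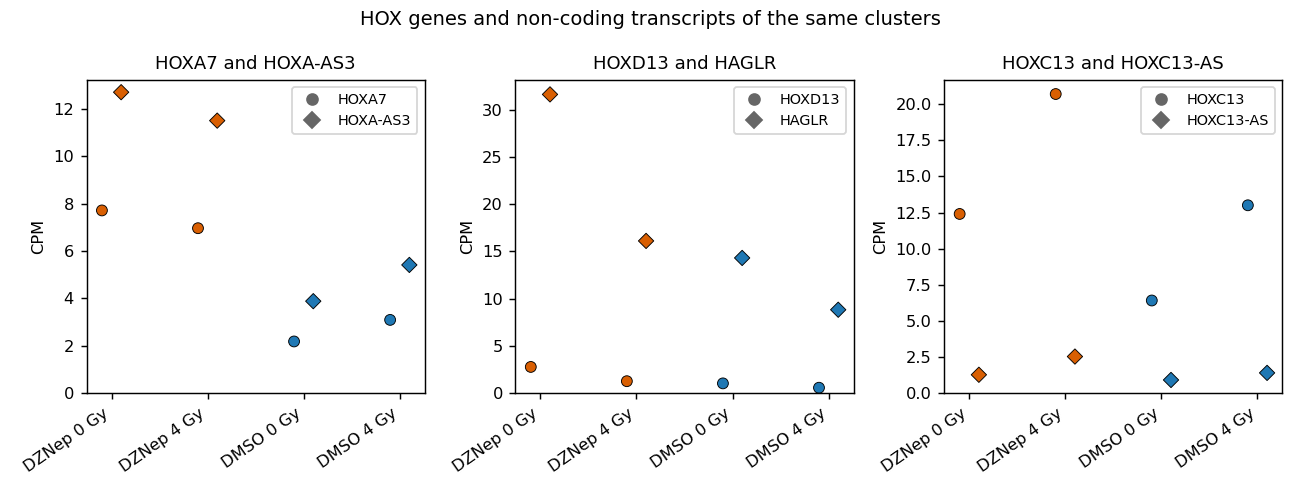
Level in CPM (linear axes from 0) of HOXA7 and HOXA-AS3, HOXD13 and HAGLR, and HOXC13 and HOXC13-AS in the 4 libraries. Circles are the HOX genes, diamonds the non-coding transcripts, orange is DZNep and blue is DMSO. HOXA-AS3 and HOXA7 are both higher in DZNep than in DMSO at each dose. CPM is not scaled to transcript length (5967 exonic bases for HOXA-AS3, 2411 for HOXA7), so heights are not compared between genes. HAGLR and HOXD13 are lower at 4 Gy than at 0 Gy within each drug. HOXC13 and HOXC13-AS are higher at 4 Gy than at 0 Gy within each drug.

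HOX proteins bind DNA with cofactors of the PBX, MEIS and PKNOX families. Of 9 such genes 8 were tested, of which PBX3 fell with DZNep and the other 7 did not pass, with a median of 0.07, against falls in 12.3% of all tested genes. PBX3, a partner of HOXA9 in leukaemia, had 11.8 and 12.2 CPM in DZNep, against 25.3 and 20.0 CPM in DMSO (log2 -0.91, SE 0.18, adjusted p = 0.00414). PBX4 had a larger estimate with a wider error and did not pass (log2 -1.02, SE 0.36, adjusted p = 0.0569), and MEIS3 did not pass either (log2 0.52, SE 0.18, adjusted p = 0.0599).

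Of 44 genes known to act on the HOX clusters 41 were tested, and 8 rose and 4 fell with DZNep, with a median of 0.16, against rises in 10.8% and falls in 12.3% of all tested genes. In the retinoic acid branch, CYP26B1, an enzyme that degrades retinoic acid, had 13.5 and 16.2 CPM in DZNep, against 4.13 and 2.63 CPM in DMSO. It rose by 2.16 on the log2 scale (SE 0.25, adjusted p = 8.03e-05). Its relative CYP26A1 was too low to be tested, at 64 and 46 counts in DZNep and 0 and 5 in DMSO. RARB, a retinoic acid receptor, had 19.4 and 22.9 CPM in DZNep and 36.5 and 49.6 CPM in DMSO. It fell by 1.01 (SE 0.17, adjusted p = 0.00107). CYP26B1 was thus higher and RARB lower in both DZNep libraries. The related receptor genes RARA, RARG, RXRA and RXRB were tested and did not pass. Whether retinoic acid has a part in the HOX results was not tested.

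Among chromatin genes, the Polycomb genes BMI1 (log2 0.78, SE 0.19), JARID2 (0.76, SE 0.18) and CBX2 (0.57, SE 0.19) rose. EZH2 did not pass, at 53.8 and 48.4 CPM in DZNep and 76.4 and 48.9 CPM in DMSO (log2 -0.26, SE 0.17, adjusted p = 0.293). On the activating side, MEN1, the menin subunit of the KMT2A complex, rose (0.46, SE 0.15, adjusted p = 0.0366), as did AFF1 (0.64, SE 0.18) of the super elongation complex. PSIP1, which tethers menin and KMT2A to chromatin, fell (-0.80, SE 0.16, adjusted p = 0.00366), and so did ING5 (-0.87, SE 0.27), a reader of active histone marks. CTCF, which separates domains within the HOX clusters, rose (0.74, SE 0.17, adjusted p = 0.00831), as did ZNF503 (0.78, SE 0.19), while NPM1, mutated in leukaemias with high HOXA and HOXB levels, fell (-0.69, SE 0.12).

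Of the same 41 tested genes, 1 rose and 3 fell with radiation, against 2.17% and 0.897% of all tested genes. The rise was that of KDM6B, a demethylase that removes the Polycomb mark (log2 0.82, SE 0.17, adjusted p = 0.0289). GMNN, the geminin gene, fell by 0.90 (SE 0.18, adjusted p = 0.0211), XPO1, a nuclear export receptor, by 0.71 (SE 0.16, adjusted p = 0.0337) and NPM1 by 0.52 (SE 0.12, adjusted p = 0.0374). All 4 moved the same way in both drug groups, but a gene passes this test more readily when the drug groups agree.

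Markers of the line's own tissue and of other cell types were summed in each library. The epithelial markers summed to 3900 and 4310 CPM in DZNep at 0 and 4 Gy and to 1500 and 1780 CPM in DMSO, nearly all from KRT8 and KRT18, which rose with DZNep, whereas the defining genes EPCAM and CDH1 had 5 to 68 counts. The carcinoma origin given in the labels was thus seen in keratins and hardly in EPCAM and CDH1. Of the lung lineage, FOXA1 was expressed, NKX2-1 had 6 to 15 counts and SCGB1A1 none. The 6 fibroblast markers summed to 15.3 and 19.1 CPM in DZNep and to 24.0 and 27.1 CPM in DMSO, chiefly COL1A1 and COL3A1, which fell. The 4 endothelial markers summed to 0.943 and 0.651 CPM in DZNep and to 0.246 and 0.258 CPM in DMSO, and HBB, a marker of red blood cells, was at 0 in every library. The part of the epithelial and fibroblast markers in the HOX results was not tested.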

How the data were processed

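Messenger RNA libraries were made from total RNA with the Lexogen SENSE kit, per the labels' protocols. The authors deposited 1 table of raw, unscaled read counts by gene symbol for each library. TopHat, edgeR and hg19 are named in the submitters' processing notes, while the counting program, annotation and strandedness of counting were not given in the sources used here. Totals were 112461380 to 136594350 counts. Even numbers made up 55.86% to 58.06% of the counts from 1 to 59, so some fragments may have been counted by both reads, and counting intervals may be too narrow.

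Counts were scaled by TMM in edgeR 4.0.16 (R 4.3.3) and tested over 13378 genes, as stated in the report. The prior degrees of freedom were 11.5, and the common biological variation was 0.163 as a coefficient. A standard error is the absolute log2 change over the square root of its F statistic. Ratios of 2 libraries used a prior count of 2 and exact conditional binomial 95% intervals. Ratios were left out where either library had 0 counts or neither had more than 3. Transcript lengths and exon overlaps came from GENCODE v29 by symbol and promoters from RefSeq GRCh38.p14, both on another build than hg19. The counts of calls cover every HOX gene, and some single genes are not reported here. Of the related lists, genes past a threshold were named, plus up to 3 with the largest drug effect. The HOX genes and lists were chosen with earlier results of these data known. The test was checked on simulated data. Alternatives were DESeq2 1.42.0, other scalings, filters, prior counts and models, and leaving out each library.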

Additional observations from a re-analysis of the deposited data

Results flagged for a closer look

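For 4 HOX genes the sign of a 2-library ratio differed between the groups in which it was taken, and both counting intervals excluded 0. None of these differences was tested, since 1 library per group leaves no error for them. Among all tested genes, the sign was the same for 74.2% of the DZNep ratios and 65.7% of the radiation ratios. The share that also had both intervals off 0 is not given. These intervals are narrow for genes with many counts, so small ratios can exclude 0. HOXD8 had a DZNep to DMSO log2 ratio of 0.57 at 0 Gy and -0.28 at 4 Gy, and a 4 Gy to 0 Gy ratio of -0.47 in DZNep and 0.38 in DMSO. HOXA3, the most abundant HOX gene, had DZNep to DMSO ratios of 0.10 at 0 Gy and -0.33 at 4 Gy, and 4 Gy to 0 Gy ratios of -0.22 in DZNep and 0.22 in DMSO. HOXB9 had 4 Gy to 0 Gy ratios of -0.36 in DZNep and 0.27 in DMSO. HOXA7 had -0.15 in DZNep and 0.50 in DMSO, while its DZNep to DMSO ratio was above 1 at both doses. In all 4 genes, picked for such a difference, the 4 Gy to 0 Gy ratio was below 0 in DZNep and above 0 in DMSO. That direction was not compared with other genes.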

How the results depend on the processing

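With RLE or plain library size scaling, 10 HOX genes rose and 3 fell with DZNep, the same genes. DESeq2 gave 9 rises and 2 falls, without HOXB8 and HOXC9. With no filter on low counts HOXB8 and HOXC8 were lost and HOXC4 was gained. A filter at 10 CPM left 3 HOX genes in the test, with 1 rise and 0 falls, because fewer genes were tested. Without dose in the model 4 rose and 1 fell (HOXA7, HOXA11, HOXC5, HOXC10 and HOXA2). Among the 14 tested genes with at most 10% of their exonic bases shared with another gene, a choice made after seeing the data, 6 rose and 2 fell. The single radiation rise, of HOXC13, became 0 rises without the filter and 0 without the drug in the model, where 0 genes of the whole series passed and 524 had an unadjusted p under 0.05. The median DZNep to DMSO ratio at 0 Gy was 0.57 over tested HOX genes, 0.25 over those at 10 CPM or more and 0.19 over all with a count. Of the 39 genes, 5 had no count, 7 had at most 3 in every library and 9 stayed under 0.1 CPM. Leaving out 1 library leaves a single ratio with no test, and no called gene changed direction. Each such ratio was already part of the fit, so a called gene could hardly change direction here. Relative to its own size, the log2 value moved most for HOXC8, which ranged over 0.55 to 0.96, a log2 value changed by at most 1.38 times. In log2 units the ranges of HOXA7 (1.17 to 1.81) and HOXB8 (-1.75 to -1.15) were wider. No value of any HOX gene past a threshold reversed under the alternatives run. No paired analysis was possible because each group has 1 library and the labels give no replicate numbers. Depth limits the genes whose interval for a drug ratio spans over 1 log2 unit, among them HOXA4, HOXC4, HOXC11, HOXD11, HOXB2, HOXB4, HOXD1 and, at 4 Gy, HOXB8, which passed the test.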

Other observations

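Genes near the HOX clusters were counted as well. Of 21 listed neighbours 19 were in the tables and 13 were tested, and with DZNep 1 rose and 2 fell, with a median log2 fold change of -0.21, against rises in 10.8% and falls in 12.3% of all tested genes. SNX11, a sorting nexin near HOXB, had 10.7 and 11.2 CPM in DZNep and 7.09 and 6.03 CPM in DMSO (log2 0.74, SE 0.20, edgeR adjusted p = 0.0201). HIBADH, a valine-breakdown enzyme near HOXA, had 7.35 and 5.68 CPM in DZNep and 11.3 and 12.1 CPM in DMSO (log2 -0.86, SE 0.21, adjusted p = 0.011). ATP5G2, an ATP synthase subunit near HOXC, fell by 0.44 (SE 0.13, adjusted p = 0.03). MTX2, beyond the HOXD1 end of its cluster, had 15.8 and 15.1 CPM in DZNep and 15.7 and 13.8 CPM in DMSO and did not pass (log2 0.07, SE 0.18). EVX2, next to HOXD13, had no count in any library, nor had PRAC1 beside HOXB13.

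Of 11 homeobox genes related to the HOX family by descent (ParaHOX genes and their kin), 2 were tested. GBX2, a gene of the midbrain-hindbrain border, had 5.11 and 6.60 CPM in DZNep and 3.25 and 2.68 CPM in DMSO and rose (log2 0.98, SE 0.27, adjusted p = 0.0207). MNX1, a motor neuron and pancreas gene, had 2.21 and 1.49 CPM in DZNep and 1.47 and 0.721 CPM in DMSO and did not pass (log2 0.81, SE 0.33, adjusted p = 0.0964). GSX1, GSX2, CDX4 and GBX1 had no count in any library. MEOX1 had 40 counts in DMSO 4 Gy and 0 in each of the other 3 libraries, a pattern of 1 library with no replicate check.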
